A study of Chlamydomonas reinhardtii with 6 samples.

Results

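The genes described here make the machinery that reads messenger RNA into protein in Chlamydomonas reinhardtii, a unicellular green alga: enzymes that load tRNAs with amino acids, ribosomal proteins, and factors of initiation, elongation and release. They are the 30 genes, of 13452 in the expression table, whose functional category (MapMan, a plant annotation scheme) in the authors' deposited table of changed genes begins with amino acid activation or protein synthesis. That table holds 2596 genes that the authors called changed more than 2-fold by UV-B at a 5% false discovery rate. The members were therefore chosen by their change in the very comparison described below, so their differences are a description and carry no test. Translation genes that changed less have no category in the sources used here and are not analysed.

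RNA was sequenced from 3 cultures exposed to 1 h of UV-B and 3 cultures shielded from it (no UV-B), all wild-type strain CC-125 (137c mt+), stationary, in acetate medium (TAP), described as independent cultures. All 6 stood in weak white light of 3.6 µmol m-2 s-1 under narrowband UV-B lamps giving 0.07 mW/cm2, behind a filter with its edge at 311 nm for the exposed cultures and at 360 nm for the shielded ones. The filters thus also differ for light between 311 nm and 360 nm, and the effects of the 2 ranges cannot be told apart. Between 7868534 and 11972794 reads per library fell on the genes of the table. Values are normalised read counts, close to CPM in scale, and are not divided by gene length, so levels are compared between libraries and not between genes. In bulk RNA, fewer cells with a transcript and less of it per cell cannot be told apart.

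An alga makes protein in 3 places, the cytosol, the plastid and the mitochondrion, and each has its own ribosomes. Plastid and mitochondrial ribosomes descend from bacterial ones, and most of their proteins, like all of the cytosolic ones, are encoded in the nucleus and carried to their compartment after synthesis. Aminoacyl-tRNA synthetases join each amino acid to its tRNA; initiation factors set the ribosome on the start codon, elongation factors feed it charged tRNAs, and release factors free the finished chain at a stop codon.

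After 1 h of UV-B, 27 of the 30 genes were higher and 3 were lower, and in none of the 30 did the 3 exposed and the 3 shielded cultures overlap. All 11 aminoacyl-tRNA synthetase genes, all 5 initiation genes and both release factor genes were among the higher ones. The 3 lower genes encode plastid-specific ribosomal protein 1, an isoform of ribosomal protein S27e, and a GTPase placed under elongation. In the fit across all 13415 genes tested, 29.5% of genes were called raised and 29.6% lowered (limma, adjusted p under 0.05), and in 31.7% all exposed values lay above all shielded ones and in 31.6% below. Nothing can be read from the members' counts against these shares, since the same comparison chose the members. The raised members differed by modest amounts: log2 fold changes of value + 1 ran from 0.67 to 1.79 with a median of 1.05. The median of 0.00 over all genes tested is no like measure, since the members were chosen for changes above 2-fold. In the authors' deposited table the raised members have a median of 1.14, against 1.34 over all genes listed as induced. The lowered members spanned -3.18 to -1.47.

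**Figure D1:**
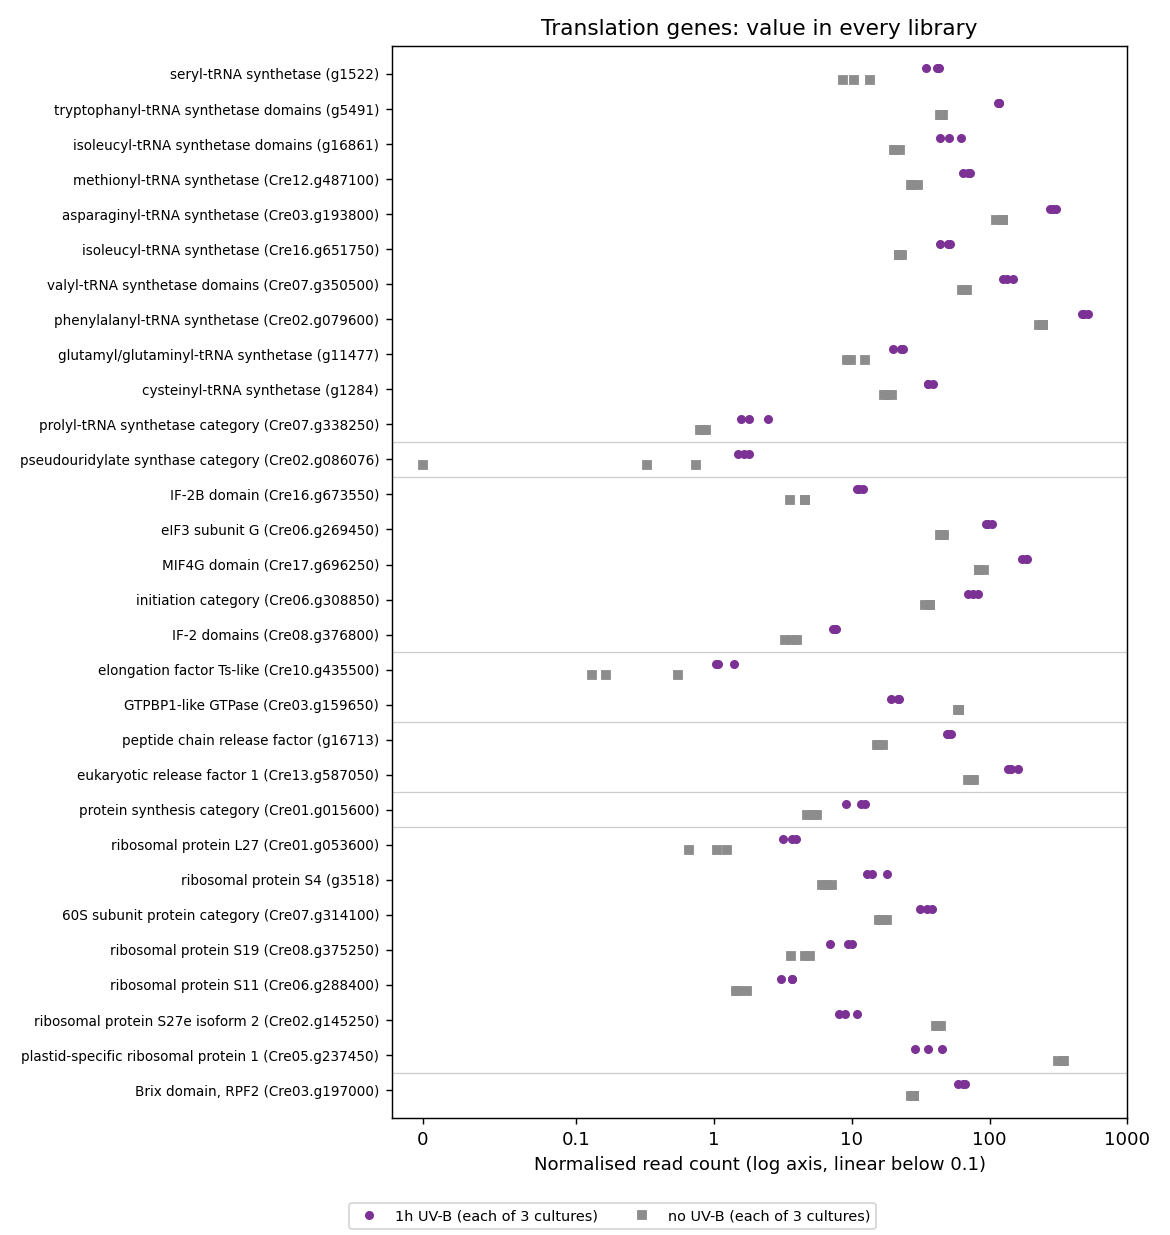
Normalised read count of each of the 30 genes (rows, grouped by role) in the 3 UV-B cultures (circles) and the 3 no UV-B cultures (squares), on a log axis that is linear below 0.1. Circles lie to the right of squares in 27 rows and to the left in 3, and no row shows overlap.

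Of the synthetase genes, g1522, placed under serine-tRNA ligase, differed the most. It had 41.4, 43.0 and 34.7 normalised read counts in the UV-B cultures and 8.67, 10.4 and 13.6 in the no UV-B cultures, a log2 fold change of 1.79 ± 0.12 (limma's moderated SE, as throughout; n = 3 per group). The lowest exposed culture was above 2 times the highest shielded one. Gene g5491 carries the domains of tryptophanyl-tRNA synthetase and had 115, 117 and 117 in UV-B cultures, against 43.9, 45.4 and 46.2 in no UV-B cultures (log2 fold change 1.34 ± 0.07). Its cultures were among the tightest of the set, with SDs of 1.37 and 1.20.

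A pair of genes carry isoleucyl-tRNA synthetase domains. In g16861 the values were 51.2, 62.4 and 43.9 in UV-B cultures and 22.6, 20.7 and 20.2 in no UV-B cultures (log2 fold change 1.26 ± 0.10), so the exposed cultures spread more widely than the shielded ones. Cre16.g651750, placed under isoleucine-tRNA ligase, averaged 48.3 ± 4.02 in UV-B cultures and 22.5 ± 0.696 in no UV-B cultures (SD, n = 3 each). Which compartment either enzyme serves is not stated in the annotation. How reads that match both genes, if any, were counted is not recorded in the labels, so the level of each is uncertain to that extent.

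The gene for methionyl-tRNA synthetase (Cre12.g487100), whose product charges both the initiator tRNA and the tRNA for internal methionines, averaged 68.8 ± 3.96 in UV-B cultures and 28.2 ± 1.99 in no UV-B cultures. For asparagine (Cre03.g193800) the means were 288 ± 14.9 in UV-B cultures and 121 ± 7.71 in no UV-B cultures, and for phenylalanine (Cre02.g079600) 488 ± 24.9 and 238 ± 9.14 in the same order. Cre07.g350500, whose first-named domains are those of valyl-tRNA synthetase, averaged 136 ± 11.4 in UV-B cultures and 66.1 ± 2.96 in no UV-B cultures. Each of these 4 genes had 819 reads or more over the no UV-B libraries alone, and their ratios of group means lay between 2.05 and 2.44.

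Gene g11477 is described as a glutamyl or glutaminyl-tRNA synthetase and is also categorised under tetrapyrrole synthesis, because plastid glutamyl-tRNA is the starting point of chlorophyll and haem as well as a substrate of translation. It averaged 22.2 ± 1.87 in UV-B cultures and 10.6 ± 1.73 in no UV-B cultures. The cysteinyl-tRNA synthetase gene g1284 lay closest to the 2-fold limit of the authors' table. It had 35.8, 35.8 and 39.2 in UV-B cultures and 18.0, 17.3 and 19.5 in no UV-B cultures, a log2 fold change of 0.98 ± 0.09. Cre07.g338250, categorised under prolyl-tRNA ligase, had little signal: 1.79, 2.48 and 1.57 in UV-B cultures, against 0.878, 0.792 and 0.832 in no UV-B cultures, from 62 and 24 reads in all.

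Synthetases fall into 2 structural classes with unrelated catalytic folds, and both were present among the listed genes. The 7 of class I (isoleucine, valine, methionine, tryptophan, cysteine and glutamate or glutamine types) had a median log2 fold change of 1.07, with a range of 0.98 to 1.34. Among the 4 of class II (serine, asparagine, phenylalanine and proline) the median was 1.14, with a range of 0.67 to 1.79. The ranges of the classes overlapped. These values are of value + 1, which shrinks the change of the prolyl gene at the low end of class II (1.19 in the authors' deposited table). The class medians there are 1.11 for class I and 1.22 for class II. Summed over the 11 genes, the normalised read count was 1283.9, 1372.8 and 1241.1 in the UV-B cultures and 556.9, 594.6 and 597.5 in the no UV-B cultures, a ratio of group means of 2.23. Most of that sum comes from the phenylalanine and asparagine genes. The remaining gene under amino acid activation, Cre02.g086076, is categorised as a pseudouridylate synthase, an enzyme that modifies uridines in RNA. It had 1.79, 1.65 and 1.49 in UV-B cultures and 0.329, 0 and 0.749 in no UV-B cultures; the 0 allows up to 0.396, the value of 3 reads in that library (counting error only). With 53 reads over the UV-B libraries and 12 over the no UV-B libraries, its size of change is poorly fixed.

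**Figure D2:**
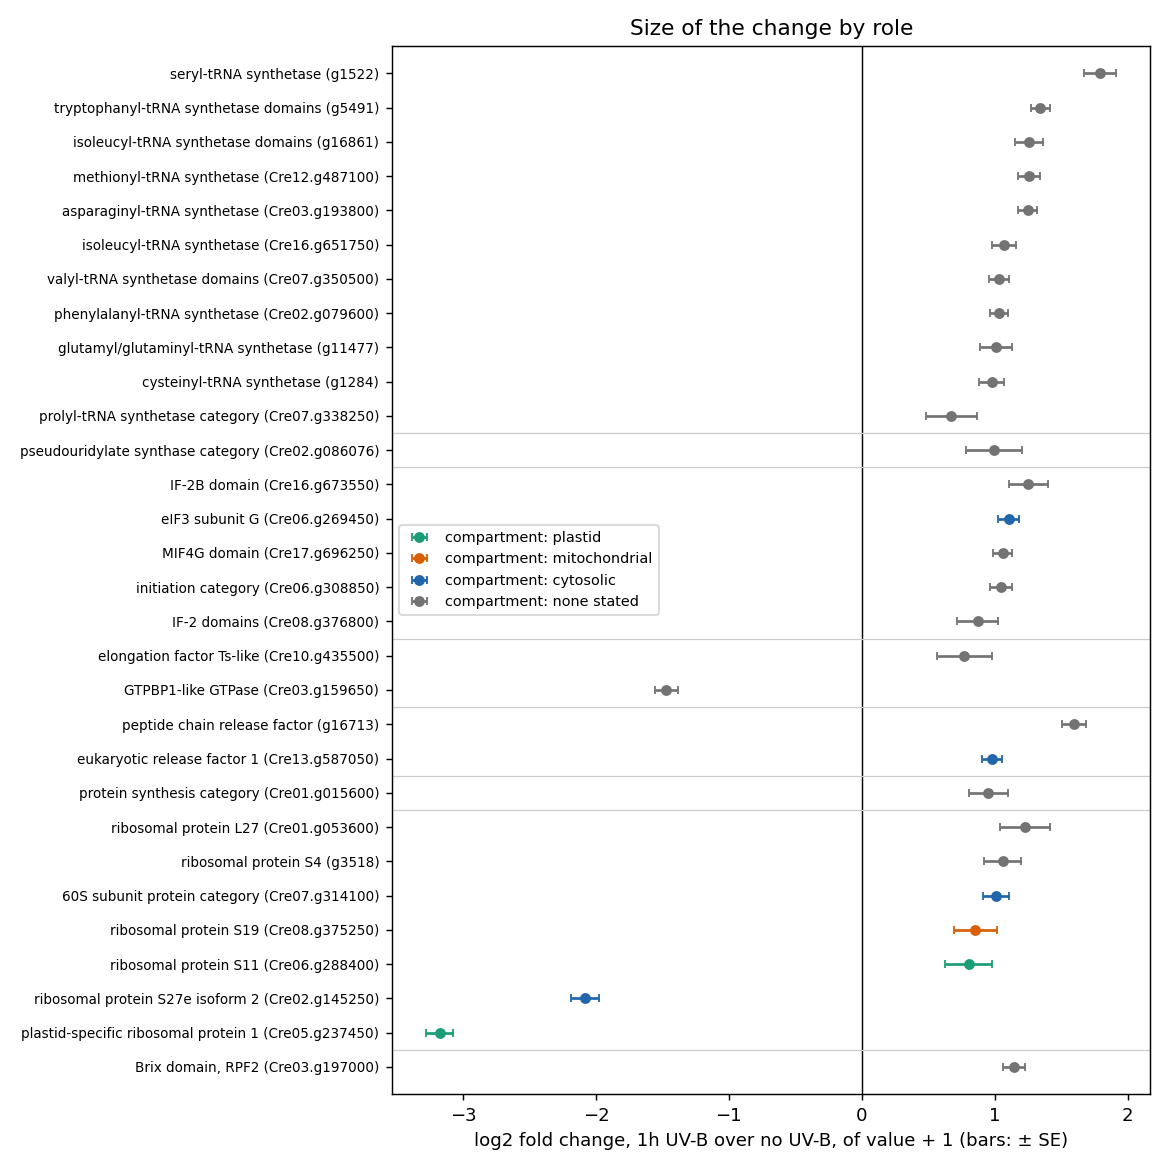
Log2 fold change (1h UV-B over no UV-B, of value + 1) of each gene with its SE (bars), coloured by the compartment that category or description states. The raised genes lie in a band from 0.67 to 1.79, and the 3 lowered genes stand at -1.47, -2.08 and -3.18.

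Initiation genes had log2 fold changes from 0.87 to 1.25 on the value + 1 scale. In the authors' deposited table they run from 1.02 to 1.46, and the 2-fold limit that admitted them bounds the low end. The gene for subunit G of eIF3 (Cre06.g269450), part of the scaffold that holds the small ribosomal subunit during cytosolic initiation, had 96.8, 94.6 and 105 in UV-B cultures and 45.5, 47.0 and 43.7 in no UV-B cultures (log2 fold change 1.104 ± 0.076). Cre17.g696250 has a MIF4G domain, the middle domain of the cap-binding scaffold eIF4G, and averaged 181 ± 7.89 in UV-B cultures and 86.5 ± 4.42 in no UV-B cultures. Cre06.g308850, under initiation with no description, averaged 75.6 ± 6.36 in UV-B cultures and 36.0 ± 1.83 in no UV-B cultures. The replicate SDs of these 3 genes were far smaller than the difference between their group means. Genes chosen for a difference in these libraries are likely to show this, so it is no test of the change.

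The other two initiation genes had lower values. Cre08.g376800 carries the domains of IF-2, the bacterial-type GTPase that brings the initiator tRNA to the ribosome, among them domains named for the mitochondrial form and for eIF5B. Its values were 7.54, 7.74 and 7.29 in UV-B cultures and 3.29, 3.69 and 3.99 in no UV-B cultures (log2 fold change 0.87 ± 0.15). Cre16.g673550 averaged 11.5 ± 0.588 in UV-B cultures and 4.27 ± 0.598 in no UV-B cultures. Its domain names cover both the eIF2B family and enzymes of methionine salvage (mtnA and mtnK), so they do not settle its place under initiation.

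Both release factor genes were higher, one of bacterial type and one of eukaryotic type. Gene g16713, a peptide chain release factor with the PrfA and PrfB domains of bacterial release factors, had 52.59, 50.03 and 48.95 in UV-B cultures and 15.36, 15.83 and 16.88 in no UV-B cultures. Its log2 fold change of 1.60 ± 0.09 was second to that of g1522 among the raised genes on the value + 1 scale. With edgeR on recovered reads, where it was 1.65, 3 raised genes of few reads (Cre10.g435500, Cre02.g086076 and L27) also lay above it. Cre13.g587050 encodes the eukaryotic release factor eRF1, which recognises all stop codons in the cytosol. It had 137, 143 and 162 in UV-B cultures and 74.5, 77.6 and 70.4 in no UV-B cultures, a log2 fold change of 0.98 ± 0.08.

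The elongation genes went opposite ways. Cre03.g159650 is described as a GTP-binding protein with domains of the GTPBP1 family, GTPases related to the elongation factor that delivers charged tRNAs. It had 19.3, 22.1 and 21.6 in UV-B cultures and 60.1, 60.3 and 59.1 in no UV-B cultures, 2.85-fold lower in the means (log2 fold change -1.47 ± 0.09). The other, Cre10.g435500, encodes a protein like elongation factor Ts, which recharges the bacterial-type factor Tu with GTP. It had 1.41, 1.03 and 1.08 in UV-B cultures and 0.548, 0.132 and 0.166 in no UV-B cultures, from 38 and 8 reads. On the log2(value + 1) scale its fold change was 0.77 ± 0.20, while edgeR on recovered reads gave 2.03, because adding 1 shrinks the change of so low a gene. Cre01.g015600, categorised under protein synthesis with no further detail, averaged 11.1 ± 1.84 in UV-B cultures and 5.22 ± 0.454 in no UV-B cultures.

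Ribosomal proteins gave the largest changes in the set, and these were decreases. Plastid-specific ribosomal protein 1 (Cre05.g237450) carries the RaiA domain, named for a bacterial protein that binds idle ribosomes. It had 28.7, 35.6 and 45.4 in UV-B cultures and 312, 347 and 341 in no UV-B cultures, a log2 fold change of -3.18 ± 0.10 and a level 9.11-fold lower in the means. Only 25 of the 13415 genes tested had a lower log2 fold change. The exposed cultures spread over a factor of less than 2, and the gene rests on 1197 reads in the UV-B libraries and 9564 in the no UV-B libraries. Isoform 2 of ribosomal protein S27e (Cre02.g145250), a component of the small cytosolic subunit, had 8.95, 8.15 and 10.9 in UV-B cultures and 40.8, 42.5 and 44.5 in no UV-B cultures. Its log2 fold change was -2.08 ± 0.11, or 4.56-fold lower in the means. Whether reads of a similar gene copy were counted here is likewise not recorded in the labels.

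The other 5 ribosomal protein genes were higher, with log2 fold changes of 0.80 to 1.23 on the value + 1 scale. Adding 1 shrinks the changes of the low genes L27, S11 and S19, for which edgeR on recovered reads gave 1.84, 1.14 and 1.02. Cre07.g314100, placed in the large cytosolic subunit without a named protein, had 35.3, 31.5 and 38.2 in UV-B cultures and 15.9, 17.9 and 16.6 in no UV-B cultures (log2 fold change 1.01 ± 0.10). S4 (g3518), a protein of the small subunit, averaged 15.1 ± 2.65 in UV-B cultures and 6.66 ± 0.562 in no UV-B cultures. L27 (Cre01.g053600), which in bacteria lies close to the site of peptide bond formation, averaged 3.63 ± 0.392 in UV-B cultures and 0.987 ± 0.301 in no UV-B cultures. The category gives no compartment for S4 or L27, although the domains named for both (RpsD and rpmA) are those of bacterial ribosomes. Cre03.g197000, with the Brix domain and the name RPF2 of a yeast factor that assembles the large ribosomal subunit, averaged 62.9 ± 3.69 in UV-B cultures and 27.9 ± 0.583 in no UV-B cultures.

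By category or description words, a compartment is stated for 7 of the 30 genes and for none of the synthetases. IF-2 (Cre08.g376800) is not among the 7, although its domains include some named for the mitochondrial form and for eIF5B. The comparison of plastid, mitochondrial and cytosolic members thus rests on few genes and is given as values alone. The 4 cytosolic members were eIF3 subunit G, eRF1, the large-subunit protein and S27e, and 3 of them were higher and 1 lower, with a median log2 fold change of 0.99. By category the plastid has 2 members, plastid-specific ribosomal protein 1 and S11 (Cre06.g288400), whose log2 fold changes of -3.18 ± 0.10 and 0.80 ± 0.18 point opposite ways. S11, however, is described as mitochondrial, against its category. It had 3.68, 3.71 and 3.06 in UV-B cultures and 1.755, 1.452 and 1.497 in no UV-B cultures. By the words of the description it joins S19 (Cre08.g375250), with 6.97, 10.1 and 9.44 in UV-B cultures and 4.61, 5.01 and 3.66 in no UV-B cultures (log2 fold change 0.85 ± 0.16). On that reading both mitochondrial members were higher and the single plastid member was lower. The other 23 genes, 22 higher and 1 lower, had a median of 1.06.

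By type of protein family, the 15 genes whose family occurs in both types or is not resolved (the 11 synthetases among them) were all higher, with a median log2 fold change of 1.05. The other two types held genes of both directions. Among 8 genes of families with bacterial names (IF-2, elongation factor Ts, the PrfA-type release factor, L27, S4, S11, S19 and plastid-specific ribosomal protein 1) 7 were higher, with a median log2 fold change of 0.86. Among 7 of eukaryotic type (eIF3 subunit G, MIF4G, eRF1, Brix, GTPBP1, S27e and the large-subunit protein) 5 were higher, with a median of 1.01. These medians are on the value + 1 scale, which shrinks the changes of low genes. In the authors' deposited table the medians are 1.17 for the bacterial and 1.07 for the eukaryotic type, the reverse order. For the 15 genes in both types or not resolved it is 1.19 there. The sums show how far single genes carry such groups. The 8 bacterial-type genes together gave 118, 125 and 137 in UV-B cultures and 344, 381 and 375 in no UV-B cultures, a lower sum although 7 of its 8 genes were higher, because plastid-specific ribosomal protein 1 held most of it in the shielded cultures.

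**Figure D3:**
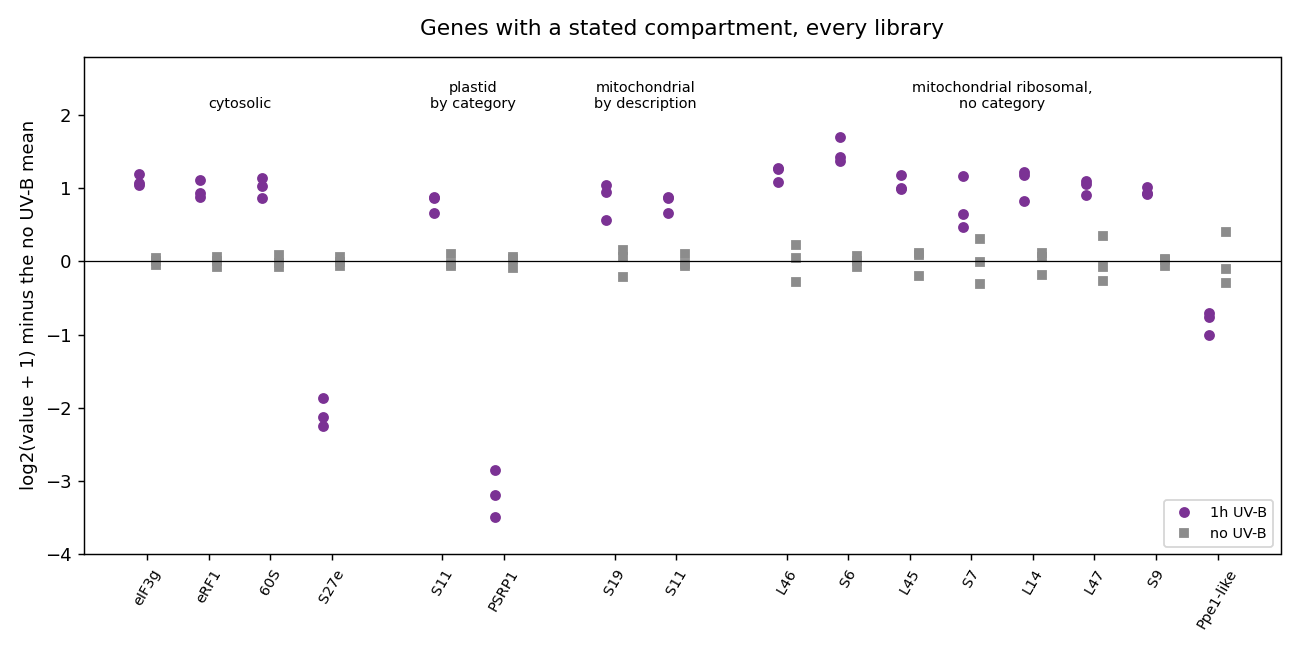
Change in log2(value + 1) from the no UV-B mean, for each culture (circles UV-B, squares no UV-B), of the genes with a stated compartment and of 8 genes described as mitochondrial ribosomal proteins that lie outside the category rule; S11 appears under both of its annotations. S27e, plastid-specific ribosomal protein 1 (PSRP1) and the Ppe1-like gene lie below 0 in all 3 UV-B cultures, and the other genes lie above 0.

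Beyond the category rule, words such as ribosom or tRNA in the annotation fields of the authors' table (description, protein domains, categories) found 18 further genes, which are likewise listed because they changed. Of these, 15 were called raised and 2 lowered in the fit across all genes (29.5% raised and 29.6% lowered over all genes), and 1 was below the minimum value and not tested. The untested gene is a factor of DNA replication (Cre03.g163300, CDT1-like) that matched by the words initiation factor alone. The list holds 8 genes described as mitochondrial ribosomal proteins, 7 raised and 1 lowered. Their median log2 fold change was 1.04, and it is 1.22 in the authors' deposited table. S6 (Cre12.g558000), of the small subunit, had 35.2, 34.0 and 42.8 in UV-B cultures and 12.5, 11.7 and 13.2 in no UV-B cultures, a log2 fold change of 1.502 ± 0.104. L14 (Cre12.g550650), of the large subunit, averaged 14.9 ± 2.27 in UV-B cultures and 6.51 ± 0.81 in no UV-B cultures, and L47 (Cre13.g588300) 10.4 ± 0.749 and 4.72 ± 1.27 in the same order. L45, L46, S7 and S9 had log2 fold changes of 1.06, 1.21, 0.76 and 0.96 on the value + 1 scale. That scale shrinks the changes of low genes, and edgeR on recovered reads gave 1.41, 2.44, 1.24 and 1.04 in the same order. L46 rests on 69 reads in the UV-B libraries and 11 in the no UV-B libraries. The lowered one (Cre12.g521250), a putative mitochondrial ribosomal protein described as a Ppe1 homolog, had 0.471, 0.825 and 0.745 in UV-B cultures and 1.755, 2.903 and 1.414 in no UV-B cultures. It reached the minimum value of 1 only in the no UV-B libraries. L46 and the pseudouridine synthase Cre10.g428400, also on the list, reached it only in the UV-B libraries. Each of these was thus tested only through the group where it is high.

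Genes that modify or remodel tRNA and ribosomal RNA made up most of the rest. Cre10.g439400 encodes subunit A of the amidotransferase that converts glutamyl-tRNA to glutaminyl-tRNA in organelles and bacteria. It had 25.1, 26.1 and 26.3 in UV-B cultures and 11.2, 12.5 and 11.6 in no UV-B cultures (log2 fold change 1.07 ± 0.10). Gene g10587, a GidA-type enzyme that modifies the wobble uridine of tRNAs, averaged 33.7 ± 2.46 in UV-B cultures and 14.5 ± 0.773 in no UV-B cultures. A TrmA-type tRNA methyltransferase gene (g491) averaged 25.0 ± 1.03 in UV-B cultures and 10.8 ± 0.823 in no UV-B cultures. A gene described as eIF2B (g4437), the exchange factor that reloads eIF2 with GTP, averaged 4.89 ± 0.235 in UV-B cultures and 1.65 ± 0.584 in no UV-B cultures. The second lowered gene of the list, described as a pre-rRNA processing protein but categorised under cell motility (Cre09.g411450), averaged 3.78 ± 0.626 in UV-B cultures and 8.49 ± 0.728 in no UV-B cultures.

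A further 6 listed genes carry a translation category only after another one and so fall outside the rule; Cre10.g428400, a pseudouridine synthase, is also among the 18. The pseudouridine synthase g1894 had the largest change of the 6, with 14.7, 15.1 and 16.2 in UV-B cultures and 4.61, 4.09 and 4.08 in no UV-B cultures (log2 fold change 1.64 ± 0.14). A pair of genes with helicase domains, both placed first under RNA processing and then under initiation, went opposite ways. Cre12.g540200 averaged 11.6 ± 2.34 in UV-B cultures and 5.44 ± 0.723 in no UV-B cultures, whereas Cre05.g238900 averaged 8.61 ± 1.84 and 19.1 ± 0.933 in the same order. With these 6 genes included, 31 were raised and 5 lowered of 36.

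Many of the raised members lie near the limit that admitted them. In the authors' deposited table the log2 fold changes of the 30 genes run from -3.17 to 2.04, and 11 of them lie within 0.1 of the 2-fold limit, which is also true of 17.6% of all listed genes. The innermost are g1284, eRF1, IF-2 (Cre08.g376800) and the phenylalanine gene, with log2 fold changes of 1.01, 1.01, 1.02 and 1.03 in the authors' deposited table. Of the 27 raised members 22 are below 1.5 there, against 63.2% of all genes listed as induced. The highest in the authors' deposited table, 2.04 for the elongation factor Ts-like gene, belongs to the member with the fewest reads, 46 over 6 libraries. Translation genes just outside the limit have no category here and cannot be named.

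**Figure D4:**
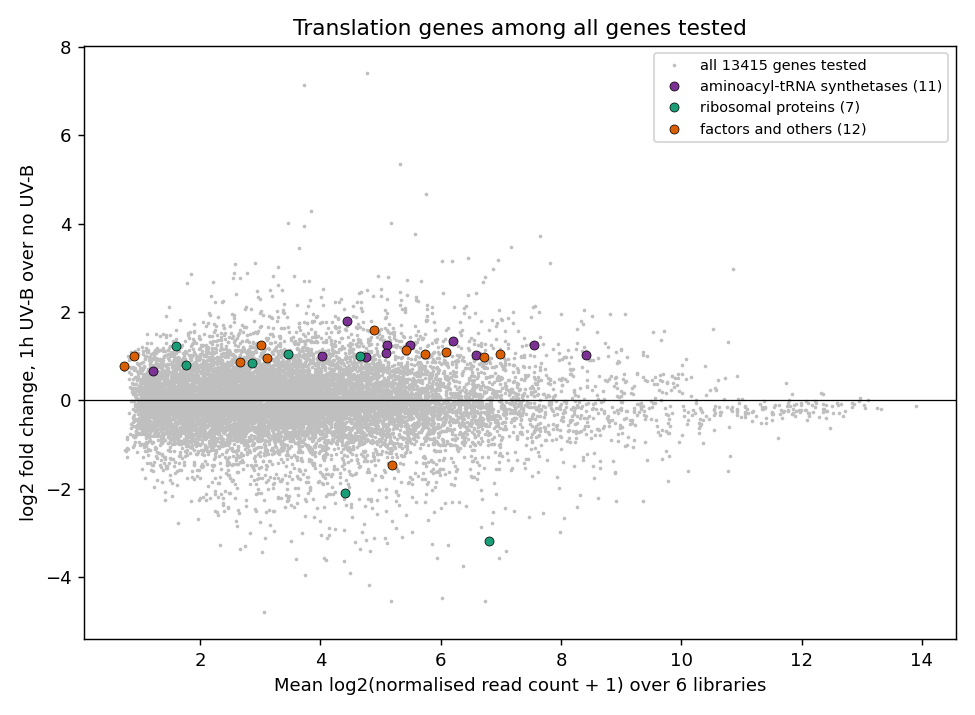
Log2 fold change (1h UV-B over no UV-B) against mean log2(value + 1) over 6 libraries for all 13415 genes tested (grey) and the 30 members (coloured by role). On this scale (value + 1) the raised members lie between 0.67 and 1.79, a range that at the low end is narrowed by adding 1: edgeR gave 2.03 for Cre10.g435500, 1.95 for Cre02.g086076 and 1.84 for L27 (Cre01.g053600). Plastid-specific ribosomal protein 1 is the lowest coloured point at -3.18.

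Direction among listed genes is set side by side with other categories in the authors' deposited table, without a test. Of all 2596 listed genes 50.1% are listed as induced, and of the 884 with a category 53.6%. For tRNA charging and translation it is 27 of 30 (90.0%), for RNA processing 16 of 22 (72.7%), for protein degradation 32 of 65 (49.2%) and for amino acid metabolism 7 of 28 (25.0%). Each category counts only genes past the 2-fold limit, so these are shares of changed genes and not of the pathways. By position, 23 members matched a gene of RefSeq assembly Chlamydomonas_reinhardtii_v5.5 and no 2 of these are next to each other.

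**Figure D5:**
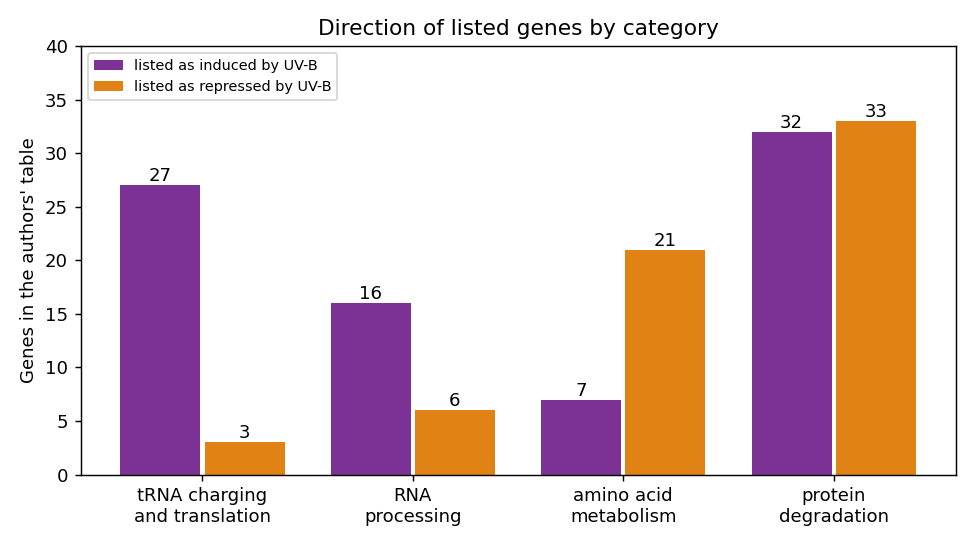
Number of genes in the authors' table listed as induced (left bar of each pair) or repressed (right bar) by UV-B, for translation and 3 other categories. Translation has 27 induced and 3 repressed genes, whereas amino acid metabolism has 7 and 21.

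Depth bears on how well each value is known. Of the 30 genes 17 had at least 100 reads in every library, and 21 had an SE below the median of all genes tested (0.14). The 7 members under 10 in both group means are elongation factor Ts-like, the pseudouridylate synthase and prolyl categories, L27, S11, S19 and IF-2. The first 3 of these reach the minimum value of 1 only in the UV-B libraries. They were thus tested only through the group where they are high, and their raised calls carry no weight. Without these 7 genes 20 members were raised and 3 lowered, with a median log2 fold change of 1.06 over the 23.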

How the data were processed

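Per the labels' protocols, each 15 mL culture grew for 4 days, 2 mL were taken after 1 h, and a stranded mRNA kit turned 400 ng of RNA into a library. The authors worked with TopHat2, HTSeq 0.5.3p9 and edgeR 3.4.2, per the submitters' processing notes, which name neither the genome build and gene models nor the strand setting. The deposited table holds a normalised signal per gene, in which each library's counts are scaled by its effective size. Every value was a whole multiple of 1 read to within 0.001 reads, and the gene with the fewest has 45 reads over 6 libraries. The authors' table gives a log2 fold change and mean log2 CPM for each gene, with p-values and FDR, per the file headers. All sample columns were used (0 unused).

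Columns were matched to samples by description and title. The members and lists were chosen with earlier results of these data known. Limma 3.58.1 with a mean-variance trend (R 4.3.3) was fitted to log2(value + 1) of all 13415 genes that reached 1 in 3 libraries or more, with Benjamini-Hochberg adjustment and a threshold of 0.05; all 30 members passed that filter. P-values over members alone were not computed. The fit was tested on simulated data. On recovered reads, edgeR 4.0.16 called 3960 genes raised and 3983 lowered, against 3955 and 3965 in limma, and DESeq2 1.42.0 called 3356 and 3476. Compartments came from the category first, then from description words. Values per culture are printed for up to 4 rises and 4 falls per compartment class at a mean of at least 10, for conflicting annotations, for the genes nearest the 2-fold limit, and for others chosen after their values were seen. Figures were drawn with matplotlib 3.10.9. Promoter and protein sequences are not used here.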

Additional observations from a re-analysis of the deposited data

How the results depend on the processing

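Counts of members kept their value (27 raised and 3 lowered) with pseudocounts of 0.1, 0.5 and 5, without a filter, with TMM, median-of-ratios or equal-total scaling, without a trend, with edgeR and DESeq2 on recovered reads, and with each no UV-B library left out. Leaving out a UV-B library gave 24 raised, and a minimum value of 5 gave 22, because low members were then no longer tested. Counting any category of a gene gave 5 lowered members (an alternative chosen after seeing the data). TMM scaling returned the deposited scaling. Equal totals moved the median log2 fold change of all genes by under 0.1 and gave 4538 raised and 3191 lowered genes.

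The plastid median (-1.19) averages 2 genes of opposite direction. It was -1.05 and -1.34 with pseudocounts of 0.1 and 5, -1.02 with edgeR and with DESeq2, and -3.18 with the minimum value of 5, with description words first or without members under 10, where plastid-specific ribosomal protein 1 is the only gene left. The median of members with no stated compartment was 1.19 with edgeR and 1.18 with DESeq2. No member changed sign or its side of the threshold in any setting that tested it. The members were chosen for their change in these same libraries. Their kept signs and counts are therefore a description and no support for the changes. Over all settings plastid-specific ribosomal protein 1 ran from -3.34 to -3.02 and S27e from -2.19 to -1.73. The elongation factor Ts-like gene ran from 0.23 with a pseudocount of 5 to 2.06 with DESeq2. Cre02.g086076 ran from 0.31 to 2.39 with pseudocounts of 5 and 0.1. The size of change of the lowest genes thus depends on the pseudocount and the method.

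Replicate numbers gave little sign of pairing the cultures: deviations of same-numbered libraries correlated at 0.04, 0.02 and 0.12 across genes. Those of other-numbered libraries ran from -0.10 to 0.06, and not every library correlated best with its own number. So few libraries per group cannot exclude a pairing. A fit with the replicate number as a block called 4020 genes raised and 4082 lowered, with 27 and 3 members.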
